A study of Mus musculus with 8 samples.

Results

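The genes of glucose breakdown and of the cellular response to low oxygen are described here in mouse peritoneal macrophages, with and without the Mediator subunit MED1 and with and without bacterial lipopolysaccharide (LPS). A list of 38 gene symbols, picked by known role and by no rule on values, was matched to the deposited table, and 37 were found among its 23735 loci. Pkm2, the symbol without a match, is an older name of Pkm per RefSeq. The 37 genes were 3 glucose transporters, 3 hexokinases, 9 enzymes of upper glycolysis, 6 of lower glycolysis, 4 genes of lactate and pyruvate handling, 4 genes of the hypoxia-inducible factors (HIF) and their prolyl hydroxylases, and 8 other HIF targets. All 37 reached 1 RPKM (reads on a transcript divided by its length and by the size of the library) in at least 2 libraries and were tested among the 11272 loci that did so.

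RNA was sequenced from peritoneal macrophages of 8-week-old C57BL/6J mice that carried floxed Med1 alleles (MED1 fl/fl, labelled WT) or were knocked out for MED1 in macrophages (labelled MED1-/-, KO here). Cells were left untreated or were given LPS at 50 ng/mL for 6 h, which made 4 groups (WT untreated, WT with LPS, KO untreated, KO with LPS) of 2 libraries, lettered A and B. MED1 is part of Mediator, the complex that connects transcription factors with RNA polymerase II, and LPS is a bacterial cell wall component that macrophages sense through TLR4. The sources used here do not give the Cre driver, the deleted exons or whether the lettered libraries were from separate animals, so a p-value measures a change against the spread between libraries, which may be technical. Wherever 2 values of a group are given, library A comes first.

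Glycolysis turns glucose into pyruvate in the cytosol, and Ldha then reduces pyruvate to lactate, which leaves the cell through monocarboxylate transporters. HIF-1 and HIF-2 are transcription factors whose alpha subunits, encoded by Hif1a and Epas1, are marked for destruction by oxygen-dependent prolyl hydroxylases (the Egln genes). When the alpha subunits persist, they bind hypoxia response elements near genes of glucose uptake, glycolysis, mitophagy and blood vessel growth, and activated macrophages are known to rely on glycolysis and on HIF-1.

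Med1 itself was not lower in the libraries labelled KO beyond their spread. It was at 21.7 and 24.8 RPKM in untreated WT, 24.7 and 21.6 in treated WT, 17.6 and 23.4 in untreated KO and 24.4 and 20.3 in treated KO, so the groups overlapped. The value is for the whole locus, so a transcript that lacks exons still counts toward it, and KO below means the libraries so labelled. Estimated depth was 6.88 to 14.2 M reads a library, and 10192 to 11027 loci reached 1 RPKM. All 10 macrophage markers were measured, with the lysozyme gene Lyz2 at 4547 to 32317 RPKM, while 8 summed B cell markers reached 422 to 648 RPKM in WT and 591 to 1766 in KO. In RNA from whole samples, fewer cells of a type and less RNA per cell cannot be told apart.

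Promoters are shown for the 5 genes that rose with LPS when WT and KO were averaged (Slc2a1, Slc2a6, Hk2, Hif1a and Ero1l) and for Ldha and Ankrd37, which differed between the A and B libraries, because many genes of this group are known HIF targets, and for Gpi1, a gene that fell, as a window without the motif searched. Each line holds the bases before a RefSeq transcription start, 5′ to 3′ along the gene, and capitals mark the core of the hypoxia response element, ACGTG or GCGTG, on either strand (CACGT or CACGC where it lies on the other). RefSeq's GRCm38.p6 promoter table held 33 of the 37 genes by symbol or synonym, with no entry used for Slc2a3, Epas1, Ndrg1 and Bnip3l, and the mm9 positions come from exact matches of the sequences to that build. The line of Slc2a1 has 246 bases and ends at -5 from its start, and the others have 250 bases and end at -1.
Slc2a1 (mm9 chr4:118781100-118781345, plus strand): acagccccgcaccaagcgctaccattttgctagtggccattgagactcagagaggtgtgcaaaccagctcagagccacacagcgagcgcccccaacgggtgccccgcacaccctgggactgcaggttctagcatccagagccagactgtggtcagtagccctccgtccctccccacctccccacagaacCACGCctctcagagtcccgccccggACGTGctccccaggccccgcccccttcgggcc
Slc2a6 (mm9 chr2:26883519-26883768, minus strand): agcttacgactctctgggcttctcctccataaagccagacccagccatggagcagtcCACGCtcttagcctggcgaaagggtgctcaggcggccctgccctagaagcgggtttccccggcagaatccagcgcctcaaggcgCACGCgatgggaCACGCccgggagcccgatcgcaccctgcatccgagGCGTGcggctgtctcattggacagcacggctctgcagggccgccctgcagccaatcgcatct
Hk2 (mm9 chr6:82724449-82724698, minus strand): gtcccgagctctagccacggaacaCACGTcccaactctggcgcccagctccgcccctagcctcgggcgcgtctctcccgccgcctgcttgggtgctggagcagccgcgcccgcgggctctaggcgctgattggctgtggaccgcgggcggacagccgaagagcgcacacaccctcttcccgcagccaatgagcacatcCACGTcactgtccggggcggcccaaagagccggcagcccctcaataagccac
Hif1a (mm9 chr12:75008604-75008853, plus strand): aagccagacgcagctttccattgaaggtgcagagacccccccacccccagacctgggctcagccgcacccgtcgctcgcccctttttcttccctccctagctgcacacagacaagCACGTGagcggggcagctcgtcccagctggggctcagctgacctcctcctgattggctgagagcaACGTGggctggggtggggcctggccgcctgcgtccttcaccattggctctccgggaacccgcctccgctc
Ero1l (mm9 chr14:45938248-45938497, minus strand): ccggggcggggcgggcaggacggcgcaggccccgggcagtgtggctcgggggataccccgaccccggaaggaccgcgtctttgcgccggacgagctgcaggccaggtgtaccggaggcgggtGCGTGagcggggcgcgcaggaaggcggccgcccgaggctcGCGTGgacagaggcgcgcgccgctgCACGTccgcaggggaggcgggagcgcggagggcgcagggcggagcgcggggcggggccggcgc
Ldha (mm9 chr7:54100924-54101173, plus strand): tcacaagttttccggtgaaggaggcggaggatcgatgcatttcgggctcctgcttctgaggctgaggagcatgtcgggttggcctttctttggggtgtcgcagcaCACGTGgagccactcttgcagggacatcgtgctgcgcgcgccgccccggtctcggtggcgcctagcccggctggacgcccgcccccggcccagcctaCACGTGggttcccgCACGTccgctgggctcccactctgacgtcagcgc
Ankrd37 (mm9 chr8:47085205-47085454, minus strand): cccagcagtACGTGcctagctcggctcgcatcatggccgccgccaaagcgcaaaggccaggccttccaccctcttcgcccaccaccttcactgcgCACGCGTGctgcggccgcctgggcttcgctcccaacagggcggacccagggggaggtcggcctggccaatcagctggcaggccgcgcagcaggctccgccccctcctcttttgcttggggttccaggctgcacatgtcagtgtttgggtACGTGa
Gpi1 (mm9 chr7:35015356-35015605, minus strand): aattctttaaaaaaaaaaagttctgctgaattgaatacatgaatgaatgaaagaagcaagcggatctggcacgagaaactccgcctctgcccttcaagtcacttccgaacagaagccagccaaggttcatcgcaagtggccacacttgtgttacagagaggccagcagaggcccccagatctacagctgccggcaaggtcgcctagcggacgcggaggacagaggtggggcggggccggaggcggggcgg

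Slc2a1 carried a GCGTG core at -61 and an ACGTG core at -36 from its start, and Slc2a6 carried 4 GCGTG cores. In Ldha, the palindrome at -48 and the one at -145 each hold ACGTG on both strands, so each was counted on both. In the 250 bases before a start, 30 of 33 genes of the list (90.9%) had at least 1 core of either kind, beside 11226 of 27025 genes (41.5%) in the whole table. ACGTG was present in 60.6% of the listed genes and in 18.5% of all genes, and GCGTG in 66.7% and 30.9%. The 3 listed genes without a core in any window were Gpi1, Tpi1 and Eno2, of which the last 2 are not printed because 138 and 61 of their bases lie in annotated exons of protein-coding genes. Among genes that fell with LPS, Aldoc and Pfkm had cores, Gpi1 and Eno2 had none, and Epas1 and Bnip3l had no entry. A gene with several starts had several windows, and by window the shares were 38 of 47 (80.9%) and 12679 of 32851 (38.6%). The whole table was not limited to genes expressed in these cells. These are matches of letters in a short window, given without a test, and the list was picked from genes of which many are known for such elements.

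LPS raised transcripts of the glucose carriers Slc2a1 and Slc2a6, of hexokinase Hk2, of Hif1a and of Ero1l, and lowered those of Gpi1, of the minor enzyme forms Aldoc, Pfkm and Eno2, of Epas1 and of Bnip3l. With WT and KO averaged, 4 LPS libraries against 4 untreated ones, 5 of the 37 genes rose (13.5%) and 6 fell (16.2%), by an adjusted p under 0.05 (called, in limma with Benjamini-Hochberg adjustment over all loci). Of all 11272 loci, 8.46% rose and 21.8% fell in the same test. The median log2 change of the 37 genes was -0.21, beside -0.26 for all loci. Dividing each library by its median ratio to the others, which brings the median of all loci to -0.01, moved the median of the list to 0.07, and 7 of the 37 genes were then called higher and 5 lower, beside 14.1% and 13.5% of all loci. Pfkp and Vegfa were added as higher, and Gpi1 was lost. The median of the list on the deposited scale was -0.07 without KO LPS B, -0.08 without WT LPS B, -0.01 without WT untreated A and 0.01 without KO untreated A. Directions below are on the deposited scale, and every gene called in this contrast kept its direction under that rescaling, while 9 genes that did not pass turned from below to above 0 (Aldoa, Pfkfb4, Pfkl, Gapdh, Ldha, Pdk1, Egln1, Bnip3 and Higd1a). In 6 genes all 4 LPS libraries lay above all 4 untreated ones (16.2%, beside 9.2% of all loci), and in 6 they lay below (16.2%, beside 30% of all loci).

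**Figure D1:**
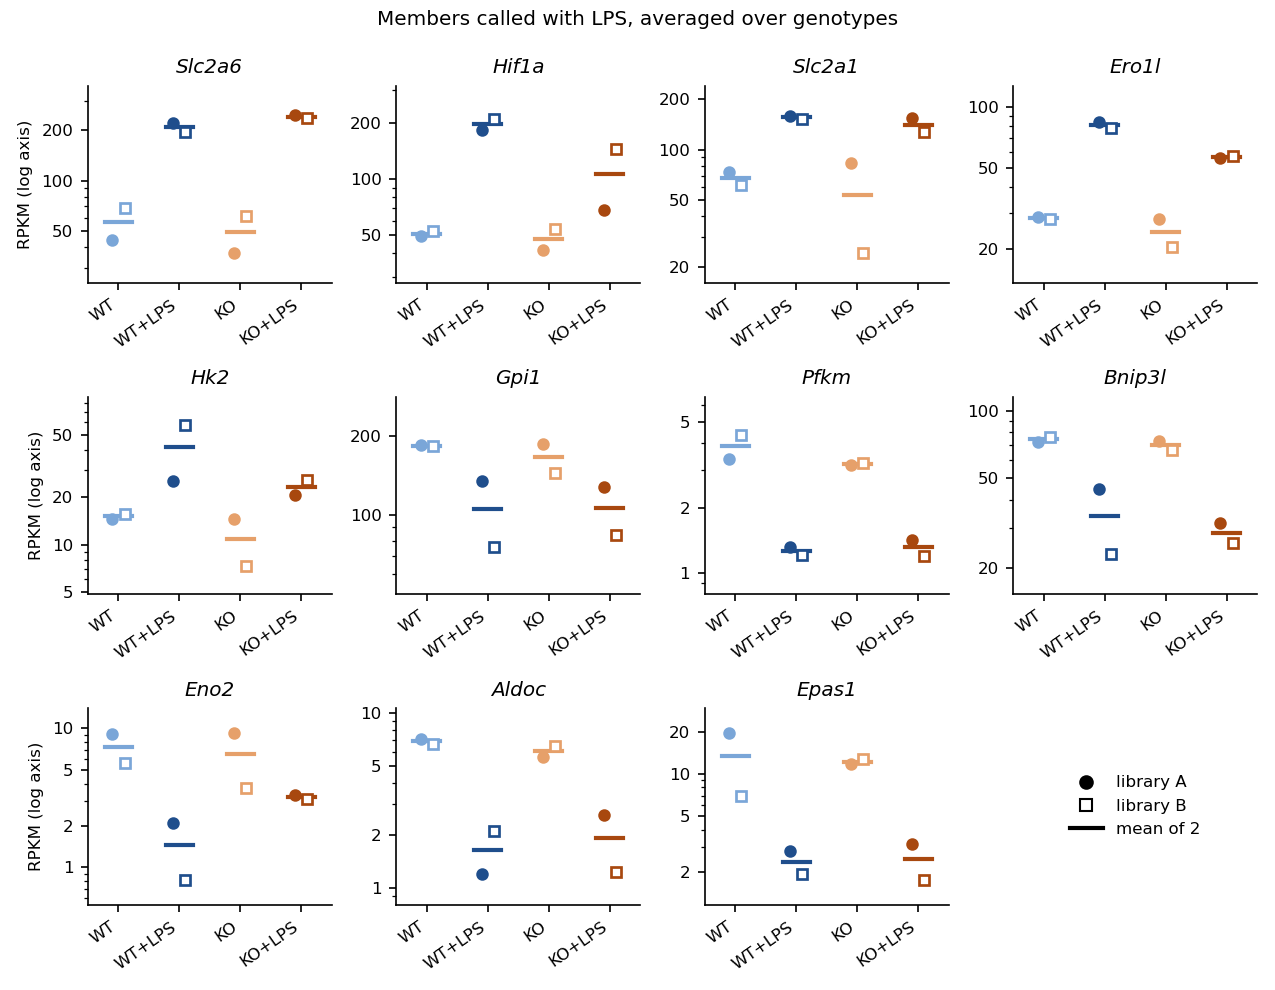
RPKM (log axis) of the genes of the list that were called with LPS over both genotypes, in each of the 8 libraries, by group. The 5 genes that rose have every LPS point above every untreated point, and the 6 genes that fell have every LPS point below.

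Of the glucose carriers, Slc2a6 and Slc2a1 rose. Slc2a6 encodes GLUT6, a transporter found mainly on internal membranes (XLOC_011975, mm9 chromosome 2, 26876883 to 26883518, minus strand). It was at 44.3 and 68.1 RPKM in untreated WT, 220.0 and 196 in treated WT, 36.7 and 61.2 in untreated KO, and 246 and 238 in treated KO. All 4 LPS libraries were far above all 4 untreated ones, in both genotypes. Its mean over genotypes went from 52.6 ± 14.6 to 225 ± 21.99 RPKM (SD, n = 4), a 4.27-fold rise (log2 2.11, SE 0.21, adjusted p = 0.00179), and it also passed in WT (log2 1.90, SE 0.30, adjusted p = 0.0208) and in KO (log2 2.32, SE 0.30, adjusted p = 0.0126). Slc2a1 encodes GLUT1, the main plasma membrane glucose carrier of most cells (XLOC_014337, mm9 chromosome 4, 118781316 to 118809935, plus strand). It was at 73.3 and 61.8 RPKM in untreated WT, 159 and 153 in treated WT, 83.6 and 24.2 in untreated KO, and 153 and 127 in treated KO. The 4 LPS libraries were alike and the untreated ones were not, with KO untreated B lowest. Its mean went from 60.7 ± 25.9 to 148 ± 14.4 RPKM (SD, n = 4; log2 1.40, SE 0.35, adjusted p = 0.0246), a call that ended without WT untreated A or B, WT LPS B, or KO LPS A or B (adjusted p up to 0.073). Within KO alone Slc2a1 passed only with the letter as a replicate block (0.0394 against 0.091 without it). Slc2a3, for the high-affinity carrier GLUT3, was the least abundant of the 3 at 0.937 to 4.67 RPKM and did not pass (log2 -0.21). Summed over the 3 carriers, 90.07 to 131 RPKM in untreated libraries became 350 to 401 RPKM with LPS. Slc2a6 took 56.0% to 64.7% of the sum in each LPS library and 30.2% to 67.9% in untreated ones, so its shares overlapped.

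Hexokinases trap glucose in the cell by phosphorylating it, and only Hk2 of the 3 passed, beside 8.46% higher and 21.8% lower of all loci. Hk2, the inducible form at mitochondria (XLOC_017619, mm9 chromosome 6, 82675019 to 82724448, minus strand), was at 14.6 and 15.7 RPKM in untreated WT, 25.4 and 58.0 in treated WT, 14.5 and 7.32 in untreated KO, and 20.7 and 25.8 in treated KO. Every LPS library lay above every untreated one, and WT LPS B stood well above the other 3. The mean went from 13.0 ± 3.85 to 32.5 ± 17.2 RPKM (SD, n = 4; log2 1.19, SE 0.30, adjusted p = 0.0257), a call that ended without any 1 of 6 libraries, namely WT untreated A or B, WT LPS B, KO untreated B, or KO LPS A or B (adjusted p up to 0.0926). Hk3, a form of white blood cells, was the most abundant hexokinase in every library and made up 45.4% to 75.3% of the hexokinase sum, with a log2 change of -0.40 (adjusted p = 0.285). The housekeeping Hk1 had a log2 change of -0.45 (adjusted p = 0.113), and with the replicate block it passed as lower (adjusted p = 0.038). Hk2 took 6.16% to 10.6% of the sum in untreated libraries, 20.05% and 37.6% in WT with LPS and 12.5% and 17.6% in KO with LPS, and treated and untreated libraries did not overlap.

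**Figure D2:**
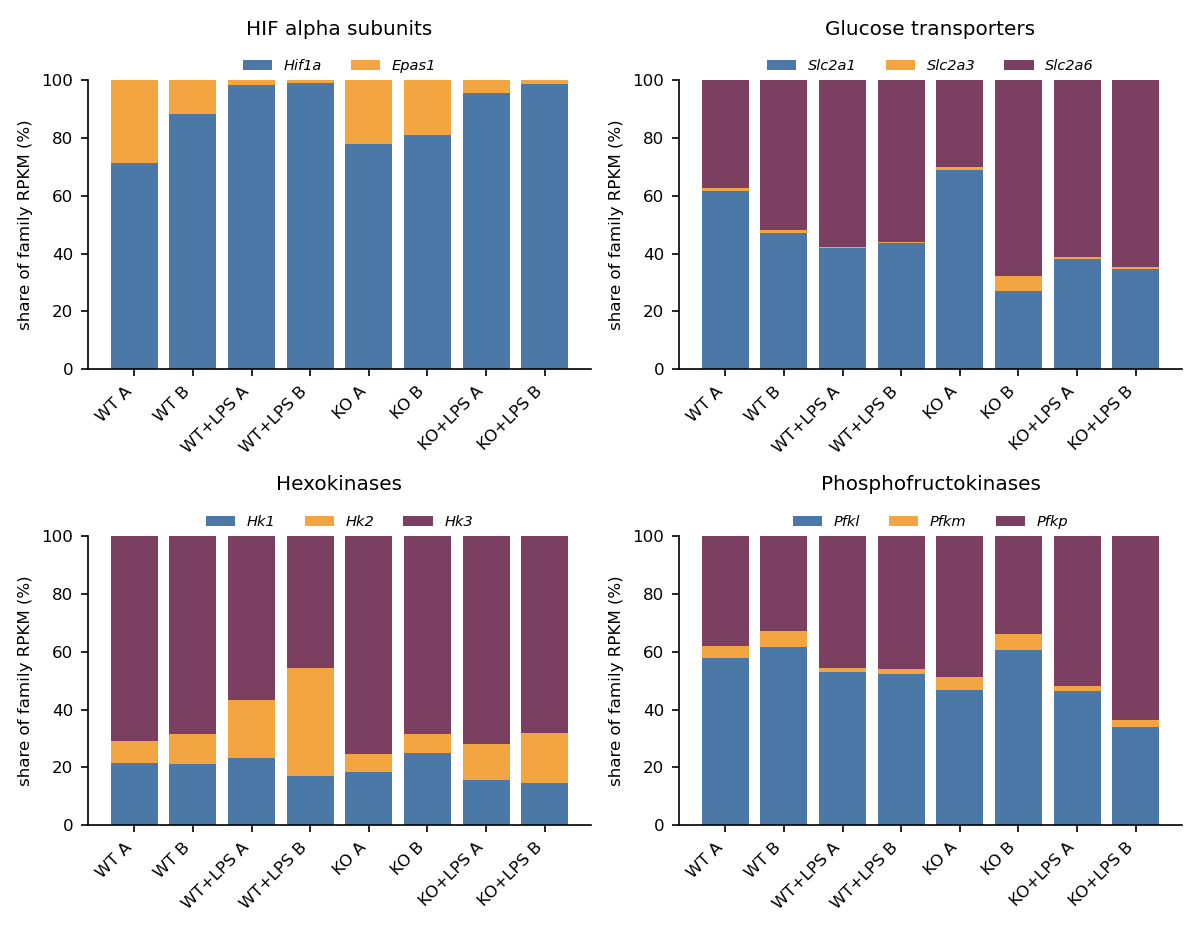
Share in percent of the summed RPKM that each isoform took within its gene family, in each of the 8 libraries by group. Hk2 takes 6.16% to 10.6% of the hexokinase sum in untreated libraries and 12.5% to 37.6% with LPS, and Hif1a takes more than 95% of the HIF alpha sum in every LPS library.

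In upper glycolysis, which runs from glucose 6-phosphate to the triose phosphates, 0 of 9 genes rose and 3 fell. Of all loci, 8.46% rose and 21.8% fell. Aldoc, the aldolase form typical of brain (XLOC_002886, mm9 chromosome 11, 78136470 to 78141283, plus strand), was at 7.13 and 6.66 RPKM in untreated WT, 1.20 and 2.10 in treated WT, 5.62 and 6.45 in untreated KO, and 2.60 and 1.23 in treated KO. The LPS libraries were all below the untreated ones. On average it went from 6.47 ± 0.631 to 1.78 ± 0.688 RPKM (SD, n = 4), a 3.62-fold fall (log2 -1.45, SE 0.21, adjusted p = 0.00493), and Aldoc passed in WT (log2 -1.59, SE 0.30, adjusted p = 0.0276) and in KO (log2 -1.31, SE 0.30, adjusted p = 0.0465), the latter lost with median-ratio scaling (adjusted p = 0.0831). Pfkm, the muscle form of the phosphofructokinase that commits sugar to glycolysis (XLOC_007042, mm9 chromosome 15, 97923020 to 97962878, plus strand), was at 3.38 and 4.37 RPKM in untreated WT, 1.32 and 1.21 in treated WT, 3.19 and 3.24 in untreated KO, and 1.43 and 1.20 in treated KO. The 4 LPS libraries were tightly grouped below the untreated ones. Its mean went from 3.54 ± 0.555 to 1.29 ± 0.105 RPKM (SD, n = 4; log2 -0.98, SE 0.15, adjusted p = 0.00618), and it passed in WT (log2 -1.10, SE 0.22, adjusted p = 0.033). Gpi1, glucose phosphate isomerase (XLOC_019389, mm9 chromosome 7, 34987141 to 35015308, minus strand), was at 184 and 183 RPKM in untreated WT, 135 and 76.0 in treated WT, 187 and 144 in untreated KO, and 128 and 84.5 in treated KO. Library B was lowest within each LPS group, and no LPS library reached the lowest untreated one. Gpi1 passed narrowly (log2 -0.75, SE 0.23, adjusted p = 0.0466) and missed the threshold after median-ratio scaling (adjusted p = 0.116) and without any 1 library except WT LPS A (adjusted p up to 0.164).

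The other 6 genes of upper glycolysis did not pass in the main test. The platelet form Pfkp was at 29.7 and 26.0 RPKM in untreated WT, 43.6 and 34.7 in treated WT, 33.7 and 19.8 in untreated KO, and 40.2 and 34.8 in treated KO. All LPS libraries were above all untreated ones, by a smaller step than in the glucose carriers (log2 0.49, adjusted p = 0.0919, and 0.0332 with the replicate block). Pfkm made up 4.31% to 5.55% of the phosphofructokinase sum in untreated libraries and 1.37% to 2.21% with LPS, while the liver form Pfkl took 34.1% to 61.7% and Pfkp 32.8% to 63.7%. Pfkfb3, whose product makes the activator of phosphofructokinase fructose 2,6-bisphosphate, was at 42.2 and 17.4 RPKM in untreated WT, 46.1 and 67.0 in treated WT, 28.9 and 26.2 in untreated KO, and 21.6 and 29.9 in treated KO. Its WT pairs differed, with a log2 ratio of LPS to untreated of 0.12 in A and 1.88 in B, and the groups overlapped. The related Pfkfb4 (6.98 to 10.96 RPKM), Pfkl (18.6 to 50.9 RPKM) and Aldoa (539 to 986 RPKM), the aldolase that supplied at least 98.8% of the aldolase sum, had log2 changes of -0.21 to -0.22. Tpi1, triose phosphate isomerase, had a log2 change of -0.61 (adjusted p = 0.3, and 0.0133 as lower with the replicate block).

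None of the abundant enzymes of lower glycolysis, which harvest ATP and NADH from the triose phosphates, passed as higher. Of all loci, 8.46% passed as higher and 21.8% as lower. Eno2, the enolase form typical of neurons (XLOC_017819, mm9 chromosome 6, 124710071 to 124719691, minus strand), was the only 1 of 6 that passed, and it fell. It was at 9.15 and 5.62 RPKM in untreated WT, 2.09 and 0.812 in treated WT, 9.31 and 3.74 in untreated KO, and 3.33 and 3.08 in treated KO. The 2 WT LPS libraries were the lowest, and no LPS library reached the untreated ones. The mean went from 6.95 ± 2.74 to 2.33 ± 1.14 RPKM (SD, n = 4; log2 -1.26, SE 0.31, adjusted p = 0.0226), and the call ended without WT untreated A, WT LPS B or either KO LPS library (adjusted p up to 0.0793). Eno1, the common enolase, supplied at least 98.2% of the enolase sum in every library and had a log2 change of -0.32. Pkm, pyruvate kinase, had the highest mean of all 37 genes, at 529 to 1670 RPKM, with a log2 change of -0.72 (adjusted p = 0.147, and 0.0264 as lower with the replicate block). Gapdh (315 to 758 RPKM), which reduces NAD while oxidizing the triose, and phosphoglycerate mutase Pgam1 (138 to 454 RPKM) had log2 changes of -0.29 and -0.40. Pgk1, the kinase that makes the first ATP, was at 400.3 and 338 RPKM in untreated WT, 514 and 431 in treated WT, 432 and 179.8 in untreated KO, and 524 and 458 in treated KO. The LPS library was the higher one in 4 of 4 letter pairs (log2 0.28 to 1.34), but KO untreated A lay above WT LPS B and Pgk1 did not pass (log2 0.58, adjusted p = 0.146). Gapdh, Pgk1, Pgam1, Eno1, Pkm, Ldha, Tpi1 and Aldoa have near-identical processed copies in the genome, and the sources used here do not say how shared reads were assigned, so their levels are uncertain. The single Pkm value does not separate the M1 and M2 forms. The summed RPKM of 17 glycolytic enzymes of the list was 1.05% and 0.777% of all RPKM in untreated WT, 0.842% and 0.583% in treated WT, 1.14% and 0.516% in untreated KO and 0.779% and 0.520% in treated KO, and the treated and untreated libraries overlapped.

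Among the genes of lactate and pyruvate, 0 of 4 passed in the main test, beside 8.46% higher and 21.8% lower of all loci. Slc16a3, for the lactate exporter MCT4, was at 37.6 and 13.2 RPKM in untreated WT, 77.1 and 48.7 in treated WT, 29.5 and 6.605 in untreated KO, and 33.2 and 17.4 in treated KO. Within each letter and genotype the LPS library was the higher one, but the A libraries were 1.58 to 4.47 times the B libraries, so that untreated A and treated B overlapped. The log2 change was 1.06 (SE 0.51, adjusted p = 0.147), and with the replicate block Slc16a3 passed as higher over both genotypes (adjusted p = 0.012) and in WT (adjusted p = 0.0303). Slc16a1, for the carrier MCT1, stayed between 4.32 and 8.15 RPKM (log2 0.05). Ldha was at 621 and 282 RPKM in untreated WT, 532 and 298 in treated WT, 595 and 221 in untreated KO, and 381 and 202 in treated KO. Its A libraries exceeded its B libraries in every group, whatever the treatment (log2 change with LPS -0.23, adjusted p = 0.7). Pdk1, the kinase that blocks pyruvate dehydrogenase, was at 1.79 to 7.36 RPKM with a log2 change of -0.08.

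Of the HIF alpha subunits, Hif1a rose and Epas1 fell. Hif1a (XLOC_004356, mm9 chromosome 12, 75002362 to 75048517, plus strand) was at 49.3 and 53.0 RPKM in untreated WT, 182 and 210.0 in treated WT, 41.9 and 54.0 in untreated KO, and 68.1 and 145 in treated KO. All LPS libraries were above all untreated ones, with KO LPS A the lowest of them. Hif1a thus averaged 49.6 ± 5.49 RPKM untreated and 151 ± 61.6 with LPS (SD, n = 4), a 3.06-fold rise (log2 1.48, SE 0.24, adjusted p = 0.00742). Hif1a passed in WT (log2 1.92, SE 0.35, adjusted p = 0.0259), while in KO its change of 1.05 had an adjusted p of 0.105 (0.04 with the replicate block). Epas1 (XLOC_008905, mm9 chromosome 17, 87153247 to 87232750, plus strand) was at 19.7 and 6.98 RPKM in untreated WT, 2.80 and 1.92 in treated WT, 11.7 and 12.7 in untreated KO, and 3.17 and 1.75 in treated KO. The treated libraries were alike in all 4 cases and lay below the untreated ones, among which WT A was highest. On average it went from 12.8 ± 5.22 to 2.41 ± 0.686 RPKM (SD, n = 4), a 5.30-fold fall (log2 -1.96, SE 0.31, adjusted p = 0.00667), and Epas1 passed in WT (log2 -1.95, SE 0.44, adjusted p = 0.0475) and in KO (log2 -1.97, SE 0.44, adjusted p = 0.0455), both lost with median-ratio scaling (adjusted p = 0.0568 and 0.0613). The ratio of Hif1a to Epas1, both per length, was 2.51 and 7.59 in untreated WT, 65.2 and 109.7 in treated WT, 3.57 and 4.24 in untreated KO and 21.5 and 83.1 in treated KO, so every treated library lay above every untreated one.

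The prolyl hydroxylases did not pass. Egln1, the main oxygen sensor, was at 7.62 to 20.6 RPKM (log2 -0.25). Egln3, itself a known HIF target, was at 4.24 and 3.48 RPKM in untreated WT, 11.1 and 4.09 in treated WT, 3.38 and 1.61 in untreated KO, and 3.66 and 1.62 in treated KO. WT LPS A stood above the other 7 libraries, and the other LPS values lay within the untreated range (log2 0.37, adjusted p = 0.422).

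Among the 8 other HIF targets, 1 rose and 1 fell, beside 8.46% higher and 21.8% lower of all loci. Ero1l (Ero1a in RefSeq), the oxidase that supplies disulfide bonds in the endoplasmic reticulum (XLOC_006431, mm9 chromosome 14, 45902879 to 45938237, minus strand), was at 28.8 and 28.0 RPKM in untreated WT, 84.2 and 78.9 in treated WT, 28.1 and 20.4 in untreated KO, and 56.0 and 57.2 in treated KO. LPS libraries were all above untreated ones, and both WT LPS libraries lay above both KO LPS ones. The mean went from 26.3 ± 3.96 to 69.1 ± 14.6 RPKM (SD, n = 4), a 2.62-fold rise (log2 1.35, SE 0.14, adjusted p = 0.00195), and Ero1l passed in WT (log2 1.49, SE 0.20, adjusted p = 0.0151) and in KO (log2 1.21, SE 0.20, adjusted p = 0.022). Bnip3l, the mitophagy receptor NIX (XLOC_006616, mm9 chromosome 14, 67604076 to 67627714, minus strand), was at 72.5 and 76.6 RPKM in untreated WT, 44.6 and 23.0 in treated WT, 73.5 and 66.6 in untreated KO, and 31.5 and 25.7 in treated KO. LPS libraries were all below the narrow untreated range. Bnip3l thus averaged 72.3 ± 4.21 RPKM untreated and 31.2 ± 9.65 with LPS (SD, n = 4), a 2.32-fold fall (log2 -1.23, SE 0.22, adjusted p = 0.00884). In WT and KO singly Bnip3l had adjusted p = 0.0619 and 0.0527, and 0.0249 and 0.023 with the replicate block. Its paralogue Bnip3, another mitophagy receptor, was at 20.5 and 16.0 RPKM in untreated WT, 34.0 and 16.6 in treated WT, 16.2 and 13.3 in untreated KO, and 12.8 and 7.41 in treated KO. The LPS library was the higher one in both WT pairs and the lower one in both KO pairs. The angiogenic factor Vegfa was at 25.5 and 37.9 RPKM in untreated WT, 28.5 and 43.0 in treated WT, 17.5 and 17.5 in untreated KO, and 29.9 and 37.6 in treated KO. The LPS library was higher than the untreated one of the same letter in both genotypes, by a small step in WT. WT untreated B lay above both A libraries with LPS and slightly above KO LPS B. Vegfa did not pass (log2 0.54, adjusted p = 0.0752), but did with the replicate block over both genotypes (adjusted p = 0.0273) and in KO (adjusted p = 0.0318). Ankrd37, an ankyrin repeat protein, was at 19.1 and 2.60 RPKM in untreated WT, 14.6 and 4.49 in treated WT, 10.7 and 3.45 in untreated KO, and 5.06 and 1.08 in treated KO, and its log2 change was -0.45 (adjusted p = 0.626). The collagen hydroxylase P4ha1 (17.3 to 37.4 RPKM), the stress gene Ndrg1 (1.94 to 9.48 RPKM) and the mitochondrial protein Higd1a (9.92 to 15.2 RPKM) had log2 changes of 0.10, 0.49 and -0.08 and did not pass.

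**Figure D3:**
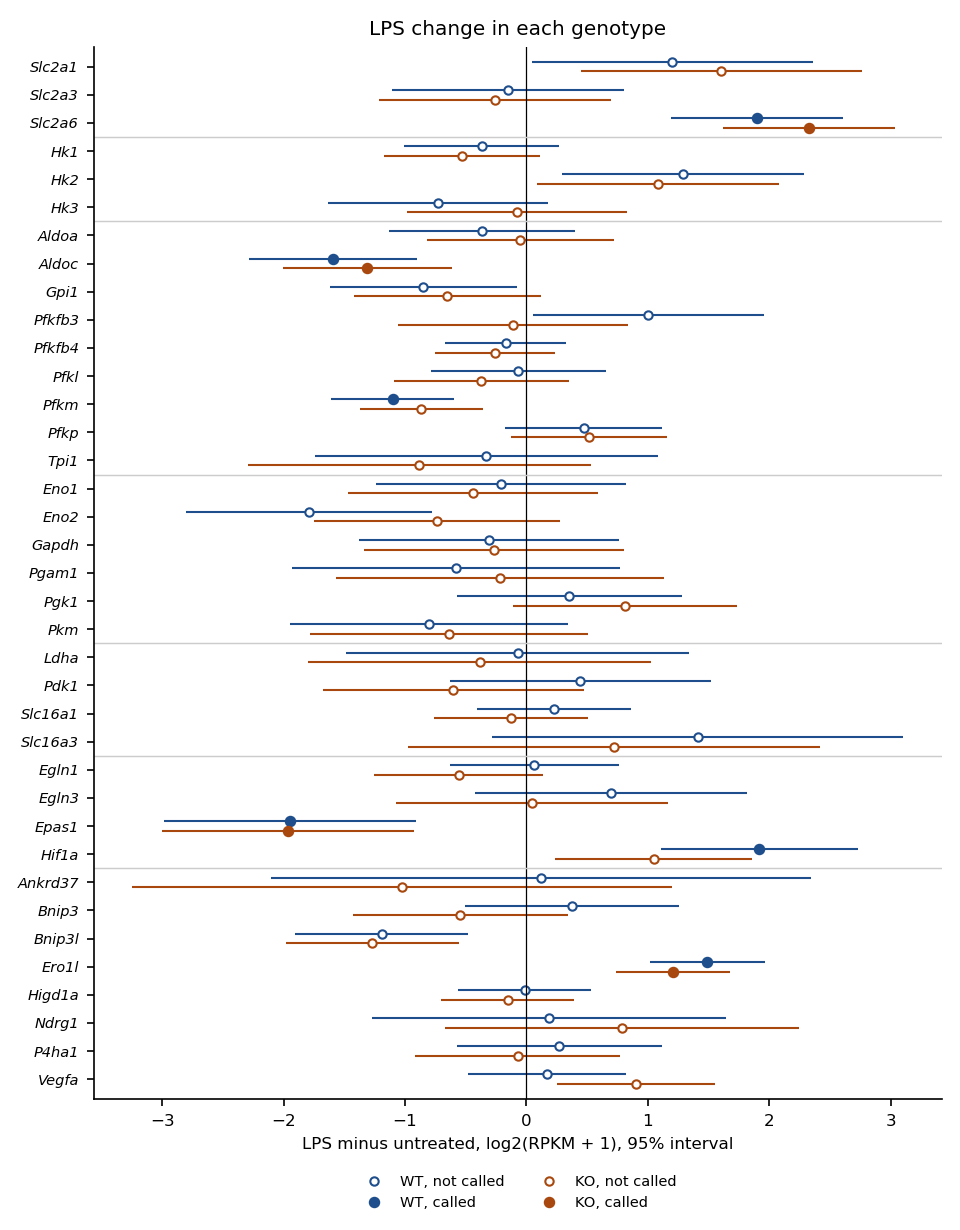
Log2 change with LPS, on the log2(RPKM + 1) scale, of each of the 37 genes in WT and in KO, with 95% intervals from limma, grouped by role; filled points passed and open points did not. In WT 3 genes passed upward and 3 downward, and in KO 2 and 2.

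Taken by genotype, LPS called fewer of these genes. In WT, Slc2a6, Hif1a and Ero1l rose and Aldoc, Pfkm and Epas1 fell, which is 3 of 37 each way (8.11%), beside 3.17% and 3.14% of all loci. In KO, Slc2a6 and Ero1l rose and Aldoc and Epas1 fell, 2 of 37 each way (5.41%), beside 3.31% and 3.31% of all loci. The median of the list was -0.01 in WT and -0.26 in KO, beside -0.25 and -0.28 for all loci, and median-ratio scaling turned them to 0.26 and 0.05. That scaling left 3 genes higher and 2 lower in WT (beside 4.56% and 3.14% of all loci) and 2 higher and 0 lower in KO (beside 4.13% and 2.74%). The KO median was 0.09 without KO untreated A and -0.02 without KO LPS B, and that in WT was 0.20 without WT LPS B, 0.14 without WT untreated A, -0.25 when WT LPS A was left out and -0.17 when WT untreated B was. With the library letter as a replicate block, 4 genes rose and 6 fell in WT (beside 5.71% and 10.4% of all loci), and 5 rose and 4 fell in KO (beside 5.25% and 9.04%). Over both genotypes the block gave 8 higher and 9 lower, beside 9.78% and 26.7% of all loci. The counts also rested on single libraries: those in WT became 0 higher and 0 lower without WT untreated A or WT LPS B, 0 and 1 without WT untreated B, and 6 lower without WT LPS A or 1 lower without either KO LPS library. Those in KO became 0 and 0 without KO LPS A or KO LPS B, 1 and 0 without KO untreated B, and 4 and 0 without KO untreated A, and 4 were lower without either WT LPS library and 1 without either WT untreated one. Over both genotypes 3 genes were called higher without any 1 of WT untreated A, WT untreated B, WT LPS B, KO LPS A and KO LPS B, and 8 without KO untreated A. The averaged calls of Slc2a6, Hif1a, Ero1l, Aldoc, Pfkm, Epas1 and Bnip3l held without any 1 library. No share of all loci stands beside the counts with a library left out, so those counts are not read as particular to these genes.

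Macrophage markers also changed with LPS. Of the 10, Cd14 rose and 5 fell (Cd68, Fcgr1, Lyz2, Gata6 and Mertk), beside 8.46% higher and 21.8% lower of all loci. With median-ratio scaling Cd14 was higher and 3 were lower (Lyz2, Cd68 and Gata6), beside 14.1% and 13.5%. Their summed level was 11681 to 35703 RPKM in untreated libraries and 8342 to 21261 with LPS, mostly through Lyz2. Lyz2 alone was at 8502.5 to 32317 RPKM untreated and 4547 to 17329 with LPS. Cd14 was at 266 to 382 RPKM untreated and 1194 to 3677 with LPS. Summed B cell markers (584 to 1766 RPKM untreated, 422 to 1436 with LPS) and mast cell markers (0.756 to 182 and 3.20 to 105) overlapped between treatments. Of 6 neutrophil markers above the filter, Camp (log2 3.21) and S100a8 (1.10) rose and Mmp8 (-2.03) fell, and the summed level of the list of 7 was 375 to 532 RPKM in untreated libraries and 245 to 380.3 with LPS, which overlapped. Of 5 mesothelial and fibroblast markers above the filter, Pdgfrb rose (log2 2.73) and 0 fell, and in WT alone Dcn also rose (1.72). The summed level of that list of 12 was 2.82 to 18.6 RPKM in untreated libraries and 11.3 to 31.9 with LPS, which overlapped. The part of all these cells in the LPS changes above was not tested.

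Whether loss of MED1 changed these genes is asked by the KO minus WT differences. None of the 37 genes passed, untreated, with LPS, averaged over treatments, or in the interaction (the LPS change in KO minus that in WT), in limma with or without the replicate block. Of all loci, 0.0266%, 0.00887%, 0.0355% and 0.0355% passed in these 4 comparisons, so few calls were made at all. At an unadjusted p under 0.05 there were 1, 7, 4 and 0 of the 37 genes, beside 94, 498, 472 and 184 of 11272 loci. The median KO minus WT difference of the list was -0.20 untreated (31 of 37 below 0), -0.17 with LPS (24 below 0) and -0.23 averaged (29 below 0), beside 0.07, 0.05 and 0.06 for all loci. These medians moved with single libraries. The untreated one was 0.08 without KO untreated B, -0.02 without WT untreated A, -0.47 without KO untreated A and -0.45 when WT untreated B was left out. With LPS it was -0.06 without KO LPS B, -0.13 without WT LPS A, -0.33 without KO LPS A and -0.40 without WT LPS B. The averaged one ran from -0.43 without KO untreated A to -0.09 without KO untreated B.

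**Figure D4:**
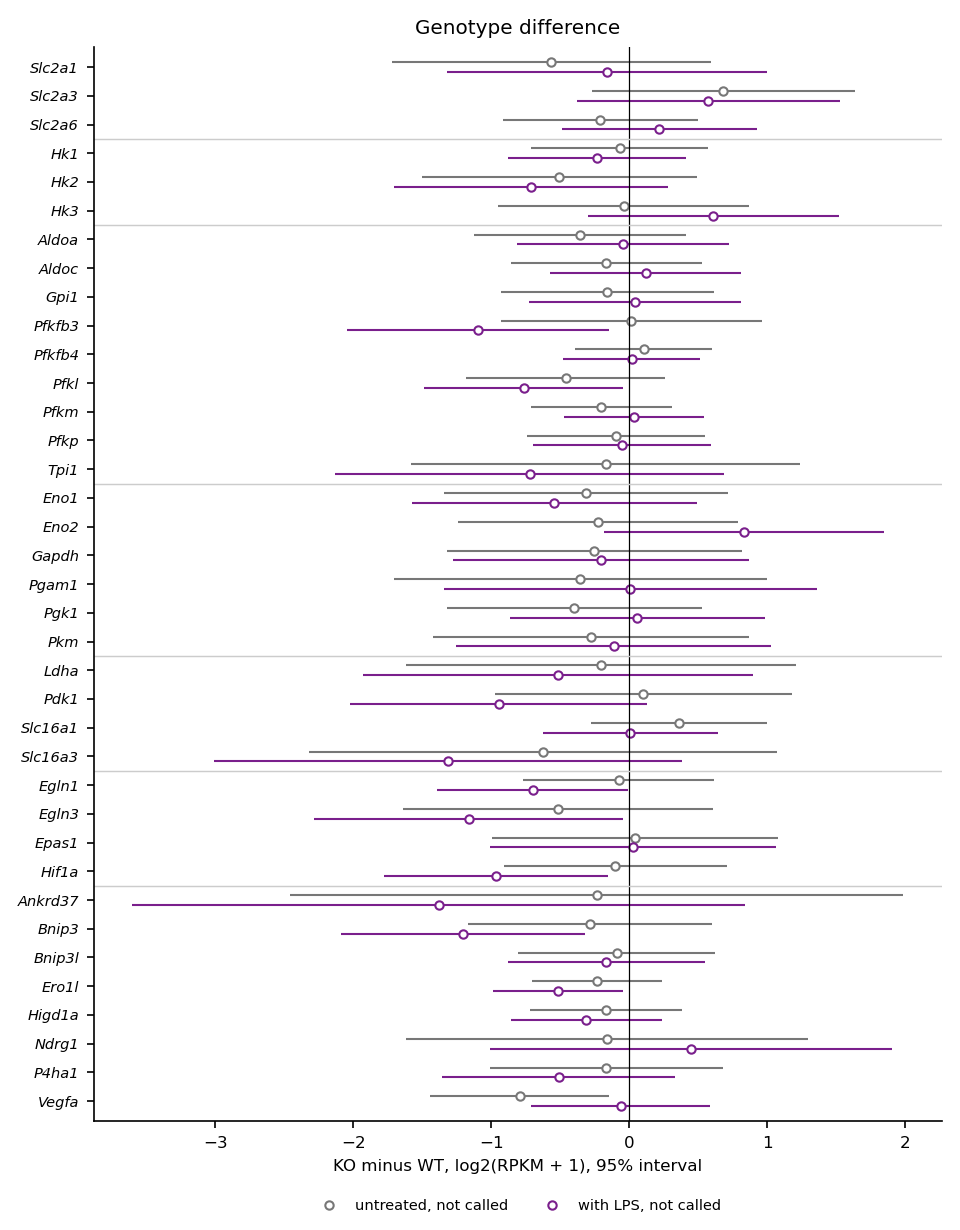
KO minus WT difference of each of the 37 genes, on the log2(RPKM + 1) scale with 95% intervals from limma, untreated and with LPS. Every point is open because none passed; with LPS, 7 intervals lie wholly below 0.

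With LPS, several HIF-linked genes had lower values in both KO libraries than in both WT libraries. Bnip3 was at 34.0 and 16.6 RPKM in WT with LPS and 12.8 and 7.41 in KO with LPS, a difference of -1.20 (95% interval -2.09 to -0.32, adjusted p = 1). Hif1a was at 182 and 210.0 against 68.1 and 145 RPKM, a difference of -0.97 (95% interval -1.78 to -0.16, adjusted p = 1). Slc16a3 was at 77.1 and 48.7 against 33.2 and 17.4 RPKM (difference -1.31, 95% interval -3.01 to 0.38). In each of these, the lower WT value lay above the higher KO value by a margin smaller than the step between letters in at least 1 group. The glycolytic activator Pfkfb3 (-1.10), the hydroxylases Egln3 (-1.16) and Egln1 (-0.70), the pyruvate dehydrogenase kinase Pdk1 (-0.95) and the liver phosphofructokinase Pfkl (-0.77) were also below in both. In all, both KO LPS libraries were below both WT LPS libraries in 11 of 37 genes (29.7%, beside 11.7% of all loci), also Hk1, Ero1l and Higd1a, and above in 4, namely Slc2a3, Slc2a6, Hk3 and Eno2 (10.8%, beside 18.7%). Ankrd37 had the widest interval (-1.38, from -3.60 to 0.84). A missed threshold with 2 libraries a group does not show that KO and WT were alike.

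Untreated, both KO libraries were below both WT libraries in 6 genes, Hk2, Aldoc, Pfkl, Pfkm, Egln3 and Vegfa (16.2%, beside 5.86% of all loci), and above in 1, Slc2a3 (2.7%, beside 17.8%). Vegfa was at 25.5 and 37.9 RPKM in WT against 17.5 and 17.5 in KO, a difference of -0.79 (95% interval -1.44 to -0.14, adjusted p = 1). Markers of other cells stood beside this. The 8 B cell markers summed to 648 and 584 RPKM in untreated WT, 628 and 422 in treated WT, 591 and 1766 in untreated KO and 1436 and 1024 in treated KO. Macrophage markers summed to 32051 and 35703, 21261 and 18656, 11681 and 18210, and 8375 and 8342 RPKM in the same order, mostly through Lyz2. The median KO minus WT difference of the 10 macrophage markers was 0.016 untreated and -0.59 with LPS, on the log2 scale. In the same order it was 0.655 and 1.165 for B cell markers and 0.594 and 0.614 for T and NK cell markers. It was -0.357 and -1.475 for mesothelial and fibroblast markers and 0.416 and -0.7 for mast cell markers. For neutrophil markers it was -0.183 and -0.609, and for dendritic cell markers -0.144 and 0.369. None of these markers was called, and their part in the KO values of Hif1a, Bnip3 and the other genes was not tested.

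Many of these genes lay higher in the A than in the B libraries, letters whose meaning the labels do not give. In 21 of 37 genes library A was above library B in 4 of 4 groups (56.8%, beside 18.2% of all loci), and Slc2a3 and Hif1a had B above A in all 4 (5.41%, beside 6.83%). A contrast of B minus A within groups, added after the values had been seen, called 3 of 37 lower in B (8.11%, beside 0.337% of all loci) and 0 higher (beside 0.24%). These were Ldha (XLOC_018460, mm9 chromosome 7, 54096845 to 54110997, plus strand), Tpi1 (XLOC_017821, mm9 chromosome 6, 124760604 to 124764314, minus strand) and Ankrd37 (XLOC_020906, mm9 chromosome 8, 47082256 to 47085221, minus strand).

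Ldha was 1.78 to 2.69 times as high in A as in B within a group (log2 -1.07, SE 0.15, adjusted p = 0.0408). Tpi1 was at 230.2 and 130.3 RPKM in untreated WT, 202 and 93.5 in treated WT, 244 and 96.8 in untreated KO, and 123 and 55.8 in treated KO. Its A library was about 1.77 to 2.52 times its B library in every group (log2 -1.09, SE 0.13, adjusted p = 0.0325). Ankrd37 showed the widest step, from 3.12 to 7.35 times (log2 -1.73, SE 0.22, adjusted p = 0.0325). Calls for all 3 ended without any 1 library (adjusted p up to 0.127), with no filter on low values, and with median-ratio scaling (adjusted p = 0.113, 0.0649 and 0.0503 in the order Ldha, Tpi1, Ankrd37), where 0.222% of all loci were higher in B and 0.16% lower. The median of the 37 genes was -0.41, beside -0.08 for all loci, and 20 had an unadjusted p under 0.05, beside 1707 of 11272. In lower glycolysis, Gapdh was 1.302 to 2.41 times as high in A and Pgam1 1.54 to 3.28 times. Eno1 was 1.32 to 2.07 times and Pkm 1.35 to 2.51 times as high, and these ratios were all largest in KO untreated. Pgk1 was 2.40 times as high in KO untreated but only 1.14 to 1.19 times in the other groups. Eno2 was 1.08 to 2.57 times as high. Ndrg1 (1.31 to 4.57 times) and P4ha1 (1.40 to 1.75 times) also lay on the A side throughout.

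**Figure D5:**
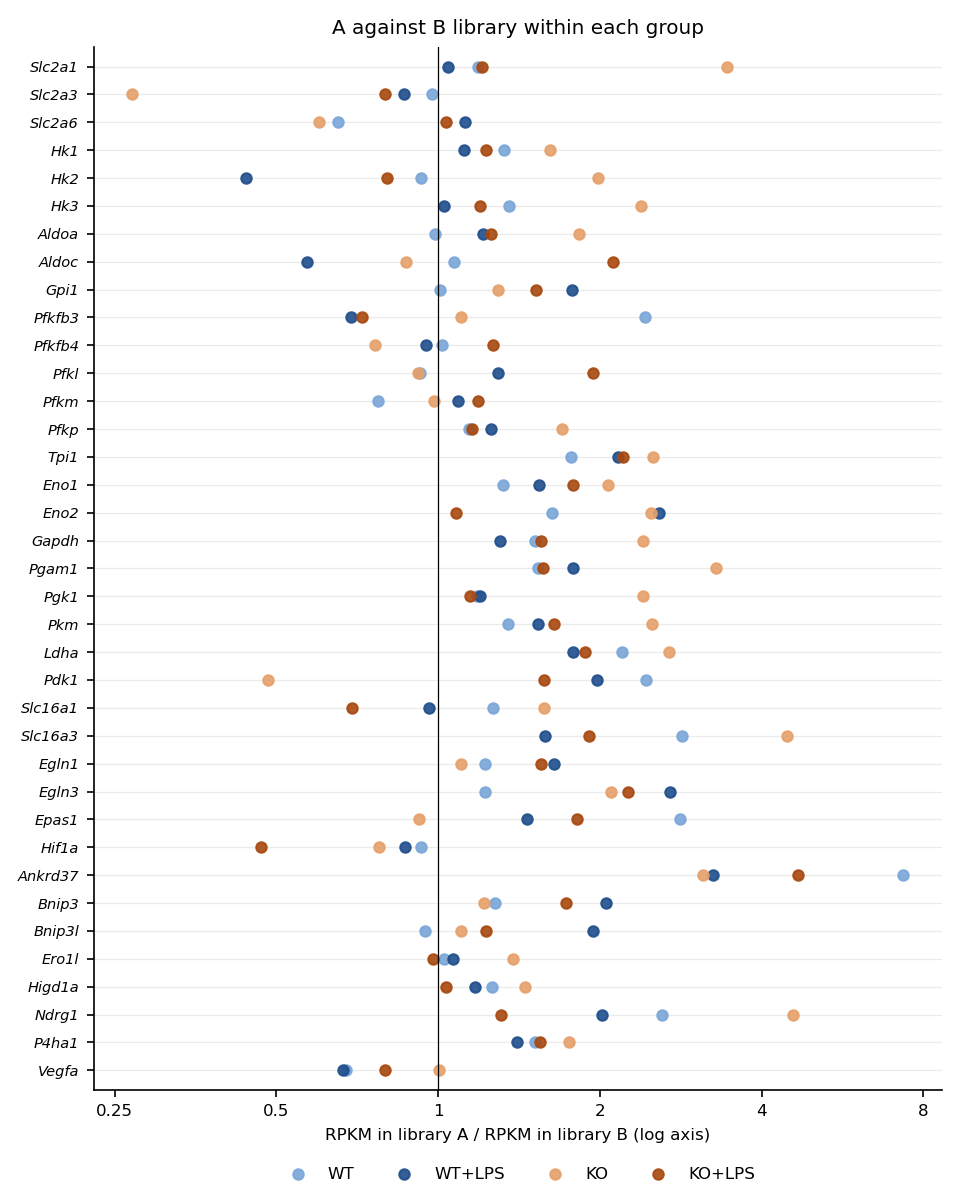
RPKM in library A divided by that in library B (log axis) within each of the 4 groups, for each of the 37 genes. Ankrd37 lies between 3.12 and 7.35 and Ldha between 1.78 and 2.69, and 21 genes have all 4 points above 1.

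Mast cell markers were higher in the B libraries, 4 of 8 by the test. All 8 reached 1 RPKM in some library, and their sum was 1.49 and 94.4 RPKM in untreated WT, 26.9 and 105 in treated WT, 0.756 and 182 in untreated KO and 3.20 and 75.6 in treated KO, B above A in each group. The proteases Cpa3, Tpsb2 and Tpsab1 and the receptor Kit were called higher in B. T and NK cell markers, of which 0 passed, also summed higher in B in each group (24.4 and 36.8, 20.6 and 27.8, 20.02 and 98.2, 45.5 and 58.3 RPKM). Red cell markers summed to 69.7 RPKM in WT untreated B and to at most 0.21 elsewhere. The part of these cells in the letter differences of Ldha, Tpi1 and Ankrd37 was not tested.

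Other genes of sugar metabolism, outside the list, fell with LPS or did not pass. The counts that follow stand beside 8.46% higher and 21.8% lower of all loci. Of 13 further glycolysis genes above the filter, 0 rose and 6 fell over both genotypes, led by lactate dehydrogenase B, Ldhb (log2 -1.77), and the glucose carrier Slc2a8 (-1.63). Of 12 genes of pyruvate entry into mitochondria, 0 rose and 4 fell, among them Pdk2 (-1.45). The pentose phosphate branch had 0 higher and 1 lower (Pgls, -0.72) of 9. Genes of gluconeogenesis and glycogen had 0 higher and 6 lower of 9, with the glycogen primer Gyg at 84.6 to 101 RPKM untreated and 16.4 to 26.3 with LPS (log2 -2.07, adjusted p = 0.00127) and the phosphorylases Pygl (-1.19) and Pygb (-1.19) beside it. Their medians were -0.49, -0.39, -0.48 and -1.12, beside -0.26 for all loci. With median-ratio scaling, beside 14.1% higher and 13.5% lower of all loci, these 4 lists had 0 higher and 5 lower, 1 and 2, 0 and 1, and 1 and 5 in the same order, and those higher were Dld and Pck2.

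Further HIF targets were split, and 1 regulator of HIF passed. Of 12 regulators, 1 rose, the ubiquitin ligase Siah2 that acts on prolyl hydroxylases (0.69), and 0 fell. Of 29 further targets, 7 rose and 6 fell, with a median of 0.00. Of all loci, 8.46% rose and 21.8% fell, with a median of -0.26. With median-ratio scaling the regulators kept 1 higher and 0 lower, and the targets had 10 higher and 4 lower. Of all loci, 14.1% were then higher and 13.5% lower. Among those that rose was the lysyl oxidase Loxl2 (3.18, at a locus it shares with a microRNA gene), and the largest falls were those of the lipase inhibitor Angptl4 (-2.33) and the chemokine receptor Cxcr4 (-1.97). In the KO minus WT average 0 genes of these 6 lists passed.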

How the data were processed

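Expression was deposited as RPKM, which the authors computed per locus and library in 1 table of 8 sample columns, all used. Per the submitters' processing notes, bcl2fastq, TopHat2 2.0.14 and Cufflinks 2.2.1 were run on mm9. The sources used here do not give the annotation, the strandedness or the treatment of multiply mapped reads. Of the table's 24192 lines, 457 were second entries of a locus with another symbol and the same values; they were dropped, which left 23735 loci. Gene positions are those of GENCODE vM1 on mm9, matched by symbol.

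A locus was tested if 2 or more libraries reached 1 RPKM (11272 loci), and log2(RPKM + 1) was fitted with limma 3.58.1 in R 4.3.3, with 1 mean per group, variances that follow a trend, two-sided tests and Benjamini-Hochberg adjustment over all loci. Fold changes are on this scale, which understates changes of low values, unless given as ratios of mean RPKM. No read counts are given, so depth was estimated from the smallest steps between low values (1 read on 1 kb stands for 0.0704 to 0.145 RPKM), and no counting interval was made. Python 3.11.15 (pandas 2.3.3, numpy 2.4.6, matplotlib 3.10.9) was used for tables and figures.

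Deviations from group means of same-lettered libraries correlated across loci in each of the 6 pairs of groups (r = 0.20 to 0.41). On this hint from the data, not from the labels, a fit with the letter as a replicate block was run beside the main one. The main fit behind the LPS and KO minus WT calls had no term for the letter, while the B minus A contrast used one. Alternatives were the pseudocount, the filter, the scaling, the variance trend, the block and leaving out each library.

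The genes, lists and rules were chosen with earlier results of these data known. Med1 is given first. Genes of the list called in any contrast, and up to 6 with the largest rise and fall in each LPS contrast, are given in every library; others are given by range or where their role needs it. Genes outside the list are counted, and named where called, up to 4 a list.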

Additional observations from a re-analysis of the deposited data

Results flagged for a closer look

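Bnip3, the mitophagy receptor, was the 1 gene of the list whose LPS values lay above the untreated ones in both WT pairs and below them in both KO pairs. In RPKM, A went from 20.5 to 34.0 and B from 16.0 to 16.6 in WT, and A from 16.2 to 12.8 and B from 13.3 to 7.41 in KO. The LPS change in KO minus that in WT was -0.92 on the log2 scale (SE 0.53) and did not pass in limma (adjusted p = 1).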

How the results depend on the processing

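The 39 results followed were the calls of listed genes and the 6 largest rises and falls in each LPS contrast. Picked by call or size, they were unlikely to change direction. Their 540 values under alternatives gave 0 reversed directions. Of these values, 409 kept their side of the threshold, 106 lost a call and 25 gained one. Smaller changes of other listed genes did turn direction under median-ratio scaling, as named above. With no filter on low values, the genes called lower with LPS were 0 in WT and 0 in KO, and those called lower in B were 0. Median-ratio scaling gave 0 lower in KO and 0 lower in B, and median changes of 0.26 in WT, 0.0456 in KO and 0.0733 averaged. A pseudocount of 0.25 RPKM gave 1 lower in KO, and a filter of 5 RPKM also 1. The replicate block (pairing by letter) gave 6 lower in WT, 5 higher and 4 lower in KO, and 8 higher averaged, and changed no call in the KO minus WT comparisons or the interaction. The B libraries alone, an alternative chosen after seeing the data, gave a median of 0.0055 in KO. Leaving out 1 library at a time, the count called higher ranged from 0 to 4 in WT, 0 to 4 in KO and 3 to 8 averaged, and the count lower from 0 to 6 in WT and 0 to 4 in KO. The median averaged over genotypes ranged from -0.29 to 0.01, that in WT from -0.25 to 0.20, that in KO from -0.46 to 0.093, the untreated KO minus WT median from -0.47 to 0.0796, and the interaction median from -0.49 to 0.17. Leaving out any 1 library left 0 calls lower in B. No share of all loci stands beside the counts with no filter, another pseudocount, a filter of 5 RPKM or 1 library left out. Those counts are therefore not read as particular to the listed genes. The causes were not tested. Precision is limited by 2 libraries a group and by an estimated depth of 6.88 to 14.2 M reads.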
